A study of Rattus norvegicus with 20 samples.

Results

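Rats that drank short-chain fatty acids (SCFA, n = 6) were compared with rats that drank plain water (H2O, n = 5), which is 11 of the 20 libraries of the series, chosen by their treatment label alone. The measured tissue was the nucleus accumbens, the ventral part of the striatum, dissected in bulk from male Sprague-Dawley rats of 7 to 9 weeks, and polyA RNA was sequenced. All rats self-administered cocaine, lived 2 to a cage and had food and their drink without restriction, so that no group here is free of cocaine and the comparison is between drinks within cocaine-experienced animals. All were wild type, and neither group received antibiotics. Each library carries a rat number of its own. The labels name neither the fatty acids in the drink nor their dose, and they do not say which rats shared a cage, so the p-values treat cage mates as separate samples. The other 9 libraries, from rats given antibiotics with fatty acids (Abx_SCFA, n = 5) or antibiotics alone (Abx, n = 4), entered the same model and are described only where the fatty acid effect is set against its counterpart on that background. All 6 SCFA rats carry numbers of the 4-hundred series, while H2O replicates 1 and 2 carry numbers of the 2-hundred and H2O replicates 3, 4 and 5 of the 3-hundred series, so that number series and drink cannot be told apart.

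Short-chain fatty acids, chiefly acetate, propionate and butyrate, are released when gut bacteria ferment dietary fibre. They signal through G protein-coupled receptors, cross membranes through monocarboxylate transporters, are turned into acetyl-CoA, and butyrate also inhibits histone deacetylases, the enzymes that remove acetyl groups from histones. The accumbens is built mostly of medium spiny neurons, inhibitory cells that carry either the D1 or the D2 dopamine receptor and that take part in reward and drug seeking.

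Library totals ran from 17946132 to 25601695 counts in SCFA and from 18223766 to 22235777 in H2O, with 14107 to 14311 and 14033 to 14169 gene symbols detected. A count of 0 allows up to 3 counts in a library, and this floor covers counting error only. Levels are given as CPM, counts scaled to library size after TMM normalisation, for SCFA as the range with its median and for H2O as replicates 1 to 5 in that order. The level of a gene list in a library, called its score, is the mean log2 CPM of its tested members.

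Several libraries stood apart before any test. SCFA replicates 2 and 5 had the highest scores of cortical excitatory neuron markers, 5.72 and 6.39, and the lowest scores of medium spiny neuron markers, 7.92 and 7.97. SCFA replicate 5 also had the lowest myelin score, 6.77, against 7.83 to 8.63 in the other SCFA libraries and 7.998 to 8.49 in H2O. Among the water rats, replicate 5 had a cortical score of 4.48 (the others 1.96 to 3.07), replicate 1 an interferon and MHC score of 3.51 (the others 1.80 to 2.79), and replicate 4 differed from the other 4 in Cend1 and RragB. Values without SCFA replicates 2 and 5 are given beside most groups of genes below.

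The comparison asks what added fatty acids do to accumbens expression in cocaine-taking rats that received no antibiotics. No gene passed: edgeR's quasi-likelihood test called 0 of 12846 genes (0.0%) at a Benjamini-Hochberg adjusted p below 0.05, and the smallest adjusted p was 0.247. At an unadjusted p below 0.05 stood 1770 genes (13.8%), 1053 higher in SCFA (8.2%) and 717 lower (5.58%). SCFA and H2O libraries did not overlap in 37 genes with all SCFA libraries higher (0.288%) and in 32 with all SCFA libraries lower (0.249%). Log2 fold changes were positive in 48.9% of all genes and negative in 51.1%, and the median over all genes was -0.0030. These shares are the background for the counts below that use all libraries. DESeq2 called 10 genes (0.0779%) and limma-voom called 0 (0.0%). The 1770 became 636 without SCFA replicates 2 and 5, 276 higher and 360 lower, so that the excess on the higher side was not present without those libraries. These 276 and 360 genes, fewer than the 1053 and 717, are the background for counts without SCFA replicates 2 and 5. Without H2O replicate 1, 786 genes were higher and 602 lower.

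The 12 genes of smallest p on each side, among named genes with a mean of at least 1 CPM, are described first, although none passed and each had an adjusted p of 0.247 (edgeR quasi-likelihood test, Benjamini-Hochberg). All 24 kept their sign and an unadjusted p below 0.05 without SCFA replicates 2 and 5, which their choice by p in the same contrast favours. With each library's cortical score, described below, as covariate, all 24 kept their sign, but 9 had an unadjusted p below 0.05 (3 of the 12 higher and 6 of the 12 lower) and 15 did not. Among the 15 were Hcrtr1, at 0.50 in place of 1.56, Pdzrn3, at 0.10 in place of 0.59, and Erlin1, at -0.15 in place of -0.32 (log2 fold changes). Libraries of SCFA and H2O did not overlap in 5 of the 12 higher and 4 of the 12 lower genes, a count read from the same contrast that chose them.

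**Figure D1:**
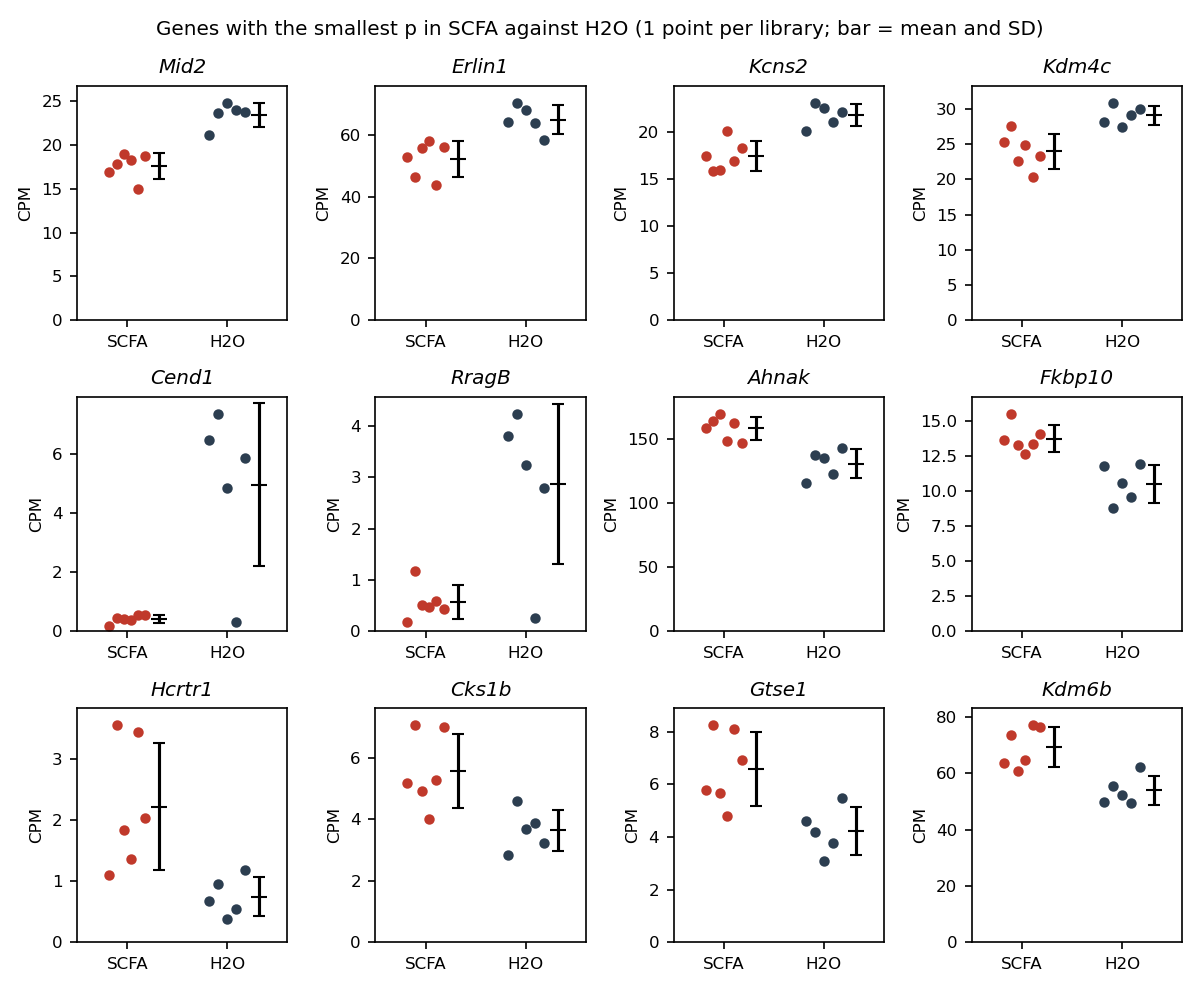
CPM of 12 of the 24 genes of smallest p, 1 point per library, SCFA (red) left of H2O (dark), with the mean and SD beside each group. Mid2, Erlin1, Kcns2, Ahnak and Fkbp10 have no overlap between the groups, whereas for Cend1 and RragB H2O replicate 4 lies among the SCFA libraries.

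On the lower side, Mid2, a ubiquitin ligase gene of the midline family, stood at 14.9 to 18.9 CPM (median 18.01) in SCFA and at 21.1, 23.6, 24.7, 23.9 and 23.7 CPM in H2O. Every SCFA library lay below every H2O library, and the log2 fold change was -0.41 ± 0.081 (SE). Erlin1, which encodes a lipid raft protein of the endoplasmic reticulum, stood at 43.8 to 57.9 CPM (median 54.2) in SCFA and at 64.0, 70.1, 68.0, 63.8 and 58.1 CPM in H2O, again without overlap, with a log2 fold change of -0.32 ± 0.070. Kcns2, a modulatory subunit of voltage-gated potassium channels, stood at 15.8 to 20.1 CPM (median 17.2) in SCFA and at 20.1, 23.0, 22.5, 21.1 and 22.1 CPM in H2O. The groups did not overlap, although SCFA replicate 4 and H2O replicate 1 lie next to each other, and the log2 fold change was -0.32 ± 0.075. Pcdhb12, a protocadherin of the beta cluster, was the fourth lower gene without overlap, at 4.35 to 5.56 CPM (median 5.01) in SCFA and 5.96, 6.24, 7.17, 7.39 and 6.29 CPM in H2O (log2 fold change -0.41 ± 0.10). Its near-identical neighbours in that cluster make its counts uncertain.

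The other lower genes overlapped between the groups. Kdm4c, a histone lysine demethylase, had a log2 fold change of -0.28 ± 0.067, with SCFA replicate 2 at 27.5 CPM just inside the H2O range of 27.3 to 30.8 CPM. Smarca1, a chromatin-remodelling ATPase, averaged 42.3 ± 2.08 CPM in SCFA and 53.9 ± 6.33 CPM in H2O (SD, n = 6 and n = 5), a log2 fold change of -0.35 ± 0.090. Riox2, a ribosomal oxygenase, stood at -0.34 ± 0.084. Ppp1r9a, the actin scaffold neurabin of dendritic spines, averaged 182 ± 21.9 CPM in SCFA and 237 ± 29.4 CPM in H2O (log2 fold change -0.38 ± 0.094), and Dcc, the netrin receptor that guides axons, averaged 24.6 ± 4.58 CPM in SCFA and 33.8 ± 2.42 CPM in H2O (-0.46 ± 0.12). Mb21d2 completed the 12 at -0.33 ± 0.083.

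The largest fold changes of the 24 belonged to Cend1, which promotes the exit of neuronal precursors from the cell cycle, and RragB, a Rag GTPase that relays amino acid supply to mTORC1 at the lysosome. Cend1 stood at 0.192 to 0.554 CPM (median 0.441) in SCFA and at 6.49, 7.35, 4.85, 0.316 and 5.86 CPM in H2O, which is 4 to 14 counts per SCFA library against 124, 146, 88, 7 and 124 counts. RragB stood at 0.192 to 1.18 CPM (median 0.497) in SCFA and at 3.82, 4.23, 3.25, 0.270 and 2.79 CPM in H2O. All 6 SCFA libraries were low in both genes, 4 H2O libraries were high, and H2O replicate 4 was as low as the SCFA libraries. The log2 fold changes were -3.52 ± 0.67 for Cend1 and -2.33 ± 0.52 for RragB (SE), and without H2O replicate 4 edgeR's quasi-likelihood test called both and no other gene (smallest Benjamini-Hochberg adjusted p 0.0146). With antibiotics, Abx_SCFA libraries had 6.402, 6.08, 8.01, 8.56 and 0.306 CPM of Cend1 and Abx libraries 7.66, 6.48, 5.70 and 9.51 CPM, so that the low level appeared in Abx_SCFA replicate 5 and in none of the other 8. RragB followed it, with 0.727 CPM in Abx_SCFA replicate 5 and 3.15 to 4.004 CPM in the other Abx_SCFA libraries, against 3.44 to 6.20 CPM in Abx. In the low libraries the counts are near the floor, so that the size of both fold changes depends on few reads there. The 4 high H2O libraries had 88 to 146 counts of Cend1 and 59 to 84 of RragB.

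On the higher side, Ahnak, which encodes a giant scaffold protein beneath the plasma membrane, stood at 147 to 169 CPM (median 160.5) in SCFA and at 116, 137, 135, 123 and 143 CPM in H2O. The groups did not overlap, and the log2 fold change was 0.27 ± 0.061 (SE). Fkbp10, a prolyl isomerase that assists collagen folding in the endoplasmic reticulum, stood at 12.6 to 15.5 CPM (median 13.6) in SCFA and at 11.8, 8.81, 10.6, 9.60 and 11.96 CPM in H2O, without overlap (0.38 ± 0.091). Nectin3, a cell adhesion molecule of junctions and synapses, stood at 11.5 to 15.8 CPM (median 12.97) in SCFA and at 8.21, 9.67, 10.6, 10.5 and 10.5 CPM in H2O, without overlap (0.44 ± 0.11). Hrk, a pro-apoptotic gene, stood at 76.3 to 97.8 CPM (median 85.2) in SCFA and at 68.7, 73.3, 69.8, 64.5 and 72.2 CPM in H2O (0.30 ± 0.078). For MGC116197, the fifth gene without overlap, SCFA replicate 5 had 11.8 CPM and the other SCFA libraries 6.62 to 8.26 CPM, against 4.45 to 6.17 CPM in H2O (0.60 ± 0.14).

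Hcrtr1, a receptor for the wake- and reward-promoting peptide orexin, had the largest fold change on the higher side. Its level was 1.10 to 3.55 CPM (median 1.94) in SCFA and 0.680, 0.957, 0.386, 0.541 and 1.18 CPM in H2O. Only SCFA replicate 1 fell inside the H2O range, SCFA replicates 2 and 5 were highest, and the log2 fold change of 1.56 ± 0.37 became 1.06 without them. Kdm6b, a histone demethylase that opens Polycomb-silenced genes, stood at 60.7 to 77.0 CPM (median 69.2) in SCFA and 49.99, 55.6, 52.2, 49.5 and 62.3 CPM in H2O (0.36 ± 0.089), with H2O replicate 5 above the lowest SCFA library. Arl4c, a small GTPase, had 0.45 ± 0.11, and Pdzrn3, a ubiquitin ligase with PDZ domains, 0.59 ± 0.15. The remaining 3 were cell cycle genes, given next.

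Genes of dividing cells stood higher in SCFA as a group, chiefly in SCFA replicates 2, 5 and 6. Of 29 proliferation genes, 28 had a positive log2 fold change and 17 an unadjusted p below 0.05, with a median of 0.64; 0 of 29 passed the adjusted threshold. With each library's cortical score as covariate the median was 0.021. Without SCFA replicates 2 and 5 it was 0.29 and 3 genes had an unadjusted p below 0.05. Scores were 1.90 to 3.50 in SCFA and 1.64 to 2.54 in H2O, so that the groups overlapped, and SCFA replicates 3 and 4 were the lowest of the 6. In bulk tissue a different number of cells of a type and a different amount of RNA per cell cannot be told apart. Cks1b, a regulatory subunit of cyclin-dependent kinases and 1 of the 24 genes above, stood at 4.01 to 7.05 CPM (median 5.22) in SCFA and 2.82, 4.58, 3.69, 3.88 and 3.21 CPM in H2O (0.61 ± 0.15). Gtse1, a microtubule-binding protein of dividing cells, had 0.64 ± 0.16, and Kif23, the kinesin of the cleavage furrow, 0.78 ± 0.20. Tpx2, a spindle assembly factor, averaged 9.48 ± 4.88 CPM in SCFA and 4.97 ± 1.35 CPM in H2O (0.93 ± 0.29), and SCFA replicate 2 held the highest value, 17.96 CPM. Ccnb2, a mitotic cyclin, averaged 1.44 ± 0.976 CPM in SCFA and 0.507 ± 0.184 CPM in H2O (1.495 ± 0.49).

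The promoters of Cks1b and Ccnb2 are shown because these cell cycle genes stood higher together and such genes are known to share a CCAAT box and the cell cycle homology region TTTGAA. Both sequences are from RefSeq on the GRCr8 assembly, reach from 250 bases before to 50 bases after the annotated start, and are printed 5′ to 3′ on the strand of the gene, with every TTTGAA (or TTCAAA, its other strand) and CCAAT found by the search in capitals.
Cks1b, chr2:177135284-177135583, minus strand: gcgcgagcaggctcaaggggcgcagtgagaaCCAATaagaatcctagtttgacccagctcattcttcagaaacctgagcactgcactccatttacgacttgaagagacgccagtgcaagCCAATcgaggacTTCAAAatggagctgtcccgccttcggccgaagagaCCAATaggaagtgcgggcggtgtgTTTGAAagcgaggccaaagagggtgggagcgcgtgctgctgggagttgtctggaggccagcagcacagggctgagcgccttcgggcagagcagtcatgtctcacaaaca
Ccnb2, chr8:79981609-79981908, minus strand: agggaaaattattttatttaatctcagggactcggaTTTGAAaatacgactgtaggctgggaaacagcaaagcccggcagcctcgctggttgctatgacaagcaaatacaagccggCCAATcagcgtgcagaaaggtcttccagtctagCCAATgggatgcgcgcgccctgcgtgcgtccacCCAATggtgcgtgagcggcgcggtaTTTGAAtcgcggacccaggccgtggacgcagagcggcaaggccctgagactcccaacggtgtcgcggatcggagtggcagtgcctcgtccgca
Cks1b carried TTTGAA at position -59 and on the other strand at -119, and Ccnb2 at -43 and -214, counted from the annotated start to the first base of the match. Searched on both strands, TTTGAA occurred in 12 of 23 matched promoters of the proliferation list (52.2%) and in 18.3% of the 33469 promoters of the table, and CCAAT in 17 of 23 (73.9%) and 37.5%. No CCAAT match overlapped a TTTGAA match in these promoters. Here and for the motifs below, a list share counts gene symbols with a match in any of their promoters. The share of the table counts every promoter, whether or not its gene was tested. Both motifs were chosen after the values were seen, and a match describes sequence, not binding.

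Markers of neuroblasts and progenitors stood higher beside the proliferation genes. All 12 had positive log2 fold changes and 9 an unadjusted p below 0.05, with a median of 0.60, or 0.28 and 0 genes without SCFA replicates 2 and 5, and -0.042 when each library's cortical score, given next, was a covariate. Dlx1, a homeobox gene of forebrain interneuron precursors, stood at 28.2 to 153 CPM (median 67.3) in SCFA and 20.1, 37.9, 21.7, 19.4 and 64.8 CPM in H2O, and SCFA replicates 2 and 6 were highest. The log2 fold change was 1.20 ± 0.42, that of its partner Dlx2 1.06 ± 0.41, that of Sp8, a zinc finger factor of olfactory bulb neuroblasts, 2.28 ± 0.89, and that of Igfbpl1 0.91 ± 0.33. For Dlx1, Dlx2 and Sp8, SCFA replicates 1, 3 and 4 lay inside the H2O range and replicates 2, 5 and 6 above it.

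Markers of cortical excitatory neurons, cells that lie outside the accumbens, stood higher in the same libraries. All 16 tested members were higher in SCFA and 14 had an unadjusted p below 0.05, with a median of 1.92. Without SCFA replicates 2 and 5 the median was 0.85 and 1 member had an unadjusted p below 0.05. Scores of SCFA replicates 1 to 6 were 3.50, 5.72, 4.19, 3.65, 6.39 and 5.14, against 2.17, 3.07, 1.96, 2.64 and 4.48 in H2O replicates 1 to 5, and H2O replicate 5 lay above 3 of the SCFA libraries. Slc17a7, which loads glutamate into synaptic vesicles, stood at 74.0 to 1059 CPM (median 268) in SCFA and at 3.29, 32.8, 3.09, 14.7 and 252 CPM in H2O, a log2 fold change of 2.73 ± 1.03. SCFA replicates 1, 3 and 4 lay inside the H2O range through H2O replicate 5, and SCFA replicates 5 and 2 were highest. Neurod6, a transcription factor of cortical projection neurons, stood at 3.88 to 40.8 CPM (median 16.1) in SCFA and 0.418, 1.71, 0.441, 0.586 and 11.1 CPM in H2O (log2 fold change 2.74 ± 0.86, SE), and Fezf2, a deep-layer factor, at 6.13 to 39.4 CPM (median 9.44) and 5.33, 5.94, 6.45, 4.33 and 7.38 CPM (1.34 ± 0.41). The part of these markers in the other results was not tested, which holds for each group of genes described here.

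**Figure D2:**
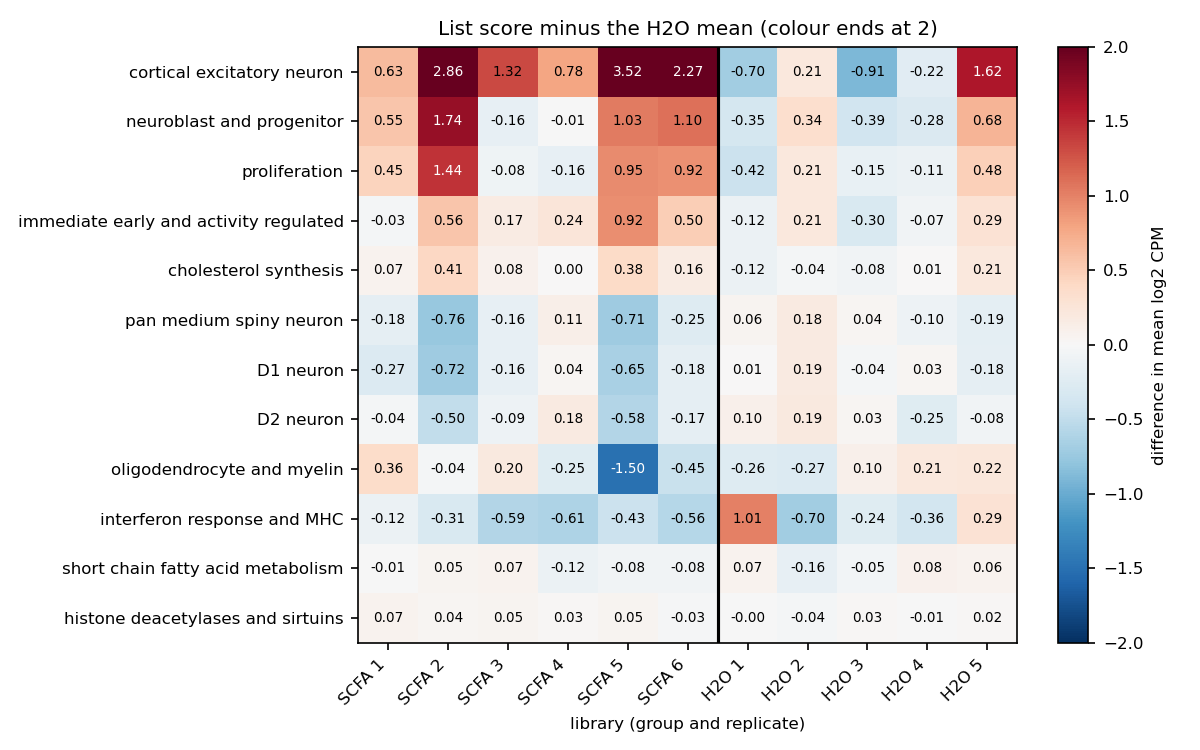
Score of 12 gene lists in each SCFA library (left of the line) and H2O library (right), as the difference from the H2O mean in mean log2 CPM, with red higher and blue lower. Cortical, neuroblast and proliferation scores are highest in SCFA replicates 2, 5 and 6, medium spiny neuron scores are lowest in replicates 2 and 5, and the interferon and MHC score is highest in H2O replicate 1.

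Genes of medium spiny neurons stood lower in SCFA. None of 26 pan medium spiny neuron markers had a positive log2 fold change, 12 had an unadjusted p below 0.05, and the median was -0.29. With the cortical covariate the median was -0.021. Without SCFA replicates 2 and 5 it was -0.10 and 3 markers had an unadjusted p below 0.05. SCFA scores were 8.50, 7.92, 8.52, 8.80, 7.97 and 8.43 for replicates 1 to 6 and H2O scores 8.74, 8.86, 8.73, 8.59 and 8.49 for replicates 1 to 5, with SCFA replicates 1, 3 and 4 inside the H2O range and replicates 2, 5 and 6 below it. D1 neuron markers had a median of -0.31 over 10 members with 4 at an unadjusted p below 0.05, and D2 neuron markers -0.30 over 11 members with 3. Leaving out SCFA replicates 2 and 5 gave medians of -0.11 with 2 genes for D1 and -0.067 with 0 genes for D2 markers. The cortical covariate gave -0.078 for D1 and 0.026 for D2 markers. Drd1 stood at 171 to 411 CPM (median 306.4) in SCFA and 411, 511, 379, 411.5 and 321 CPM in H2O (log2 fold change -0.50 ± 0.17, SE). Gnal, the stimulatory G protein subunit of striatal neurons, stood at 272 to 589 CPM (median 467) in SCFA and 605, 704, 615, 603 and 473 CPM in H2O (-0.49 ± 0.16), and Pde1c, a cyclic nucleotide phosphodiesterase, had -0.52 ± 0.17. The opioid precursors Pdyn and Penk, of D1 and D2 neurons, had -0.36 ± 0.18 and -0.38 ± 0.20, and Drd2 had -0.30 ± 0.17. For Drd1, Gnal, Penk and Pdyn the 2 lowest SCFA libraries were replicates 2 and 5.

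Further components of striatal signalling followed. In the dopamine signalling list, 6 of 32 tested members were lower and 1 was higher at an unadjusted p below 0.05 (median -0.078), but 3 lower and 1 higher without SCFA replicates 2 and 5. Prkacb, a catalytic subunit of protein kinase A, stood at 192 to 248 CPM in SCFA and 255, 280.0, 267, 279.5 and 223 CPM in H2O (-0.30 ± 0.088), and this fold change was -0.34 without SCFA replicates 2 and 5. Gnas, the stimulatory G protein subunit common to most cells, went the other way at 0.36 ± 0.11. Gad2, an enzyme of GABA synthesis, averaged 218 ± 44.5 CPM in SCFA and 316 ± 64.2 CPM in H2O (-0.54 ± 0.16), while Vip and Calb2, peptide and calcium-binding protein genes of interneurons, stood at 2.02 ± 0.66 and 0.56 ± 0.20. The fold changes of Vip and Calb2 without SCFA replicates 2 and 5 were 0.92 and 0.37. The whole striatal interneuron list was 3 higher and 4 lower of 18, but 0 higher and 1 lower without those libraries.

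Receptor and channel genes split in direction. Of 20 GABA receptor genes, 8 were lower and 1 higher at an unadjusted p below 0.05 (median -0.10). The count was 2 lower and 0 higher without SCFA replicates 2 and 5, with a median of -0.11. Gabra4, an extrasynaptic receptor subunit of striatal neurons, stood at 81.1 to 129.8 CPM (median 97.9) in SCFA and 133, 145, 128, 121 and 107 CPM in H2O (-0.31 ± 0.11). The higher member was Gabbr2, a subunit of the metabotropic receptor, whose SCFA replicate 5 had 358 CPM against 61.5 to 106 CPM in H2O. Glutamate receptor genes were 6 higher and 6 lower of 40, but 0 higher and 3 lower without SCFA replicates 2 and 5, with Grm2, a presynaptic metabotropic receptor, at 1.91 ± 0.58 and Grid1, a synaptic organiser, at -0.19 ± 0.060. Potassium channel genes were 7 higher and 4 lower of 34 (median 0.065), with Kcnc4 at 1.11 ± 0.33. These channels, without SCFA replicates 2 and 5, were 0 higher and 3 lower with a median of -0.034, and with the cortical covariate the median was -0.14. Among opioid and other neuropeptide genes, 11 of 39 tested were higher and 2 lower at an unadjusted p below 0.05, but 2 higher and 1 lower without SCFA replicates 2 and 5, where the median of 0.30 became 0.044. Sstr1, a somatostatin receptor, had 1.87 ± 0.53, and Npy2r, a receptor for neuropeptide Y, stood at 1.98 to 3.88 CPM (median 2.87) in SCFA and 4.81, 4.48, 3.64, 4.73 and 3.40 CPM in H2O (-0.56 ± 0.16).

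Activity-regulated genes, which neurons switch on after firing, leaned higher. Of 42 members 36 had a positive log2 fold change, 12 were higher at an unadjusted p below 0.05 and 0 lower, and the median was 0.23. Without SCFA replicates 2 and 5 the median was 0.12 with 2 genes at an unadjusted p below 0.05, and a fit that took the cortical score as covariate gave -0.15. Bdnf, a growth factor made by cortical neurons and transported to the striatum, stood at 1.29 to 41.1 CPM (median 8.42) in SCFA and 0.105, 0.906, 0.1102, 0.360 and 6.05 CPM in H2O, highest in SCFA replicates 2 and 5 (3.24 ± 1.02, SE). Inhba, an activin subunit, stood at 7.39 to 11.01 CPM (median 9.38) in SCFA and 6.12, 7.91, 5.62, 7.66 and 7.19 CPM in H2O (0.43 ± 0.12, or 0.33 without those libraries), with 1 SCFA library, replicate 3, inside the H2O range. Dusp5, a phosphatase that switches off ERK, had 0.64 ± 0.20 and Nptx2, a secreted organiser of excitatory synapses, 1.02 ± 0.34. The classical markers Fos and Egr1 had 0.49 ± 0.24 and 0.19 ± 0.18, and that of Egr1 was -0.060 without SCFA replicates 2 and 5. Btg2, an antiproliferative gene induced by activity, had 0.79 ± 0.28 (0.36 without those libraries).

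The Btg2 promoter is shown as an example of an activity-regulated gene with the cAMP response element TGACGTCA, the palindromic site named after cyclic AMP, in capitals (RefSeq, GRCr8, 5′ to 3′ on the gene's strand).
Btg2, chr13:48087641-48087940, minus strand: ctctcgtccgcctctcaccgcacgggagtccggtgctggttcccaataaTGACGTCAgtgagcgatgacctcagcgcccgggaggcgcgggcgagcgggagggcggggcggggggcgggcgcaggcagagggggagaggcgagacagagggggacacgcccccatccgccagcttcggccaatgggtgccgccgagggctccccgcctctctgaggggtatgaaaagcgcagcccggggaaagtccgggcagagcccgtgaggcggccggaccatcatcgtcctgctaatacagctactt
The element starts at position -201 from the annotated start. It was present in 8 of 33 matched promoters of the activity-regulated list (24.2%), those of Btg2, Crem, Dusp1, Ier2, Jund, Plk2, Scg2 and Vgf, and in 1.83% of all promoters in the table.

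Of the lipid lists, that of cholesterol synthesis leaned higher, while those of sterol regulation and of fatty acid synthesis did not. Cholesterol synthesis genes had 20 positive log2 fold changes of 22, with 7 higher at an unadjusted p below 0.05, 0 lower and a median of 0.19, or 0.068 with 1 gene without SCFA replicates 2 and 5, and -0.073 with the cortical covariate. Sqle, squalene epoxidase, stood at 55.9 to 87.7 CPM (median 64.0) in SCFA and 49.2, 52.8, 50.6, 58.0 and 57.0 CPM in H2O (0.34 ± 0.10, SE), with SCFA replicate 4 the 1 library inside the H2O range. Hmgcs1, an early enzyme of the pathway, had 0.29 ± 0.17, Idi1 0.35 ± 0.14 and Acat2, the cytosolic thiolase, 0.40 ± 0.17. Srebf2, the transcription factor of sterol genes, had 0.25 ± 0.10. In the list of sterol regulation and transport 4 of 25 were higher and 2 lower, 11 were positive and the median was -0.035; without SCFA replicates 2 and 5 it had 1 higher and 3 lower. In fatty acid synthesis 10 of 20 genes were positive and the median was -0.00020. At an unadjusted p below 0.05, 5 were higher and 1 lower, but 0 higher and 1 lower without SCFA replicates 2 and 5, with Scd, a desaturase, at 0.59 ± 0.21, Fads2 at 0.31 ± 0.11 and Me1, a source of NADPH, at 0.51 ± 0.18. The sterol response element TCACNCCAC was found in 0 of 17 cholesterol synthesis promoters and 0 of 20 of the sterol regulation list, and in 1.12% of all promoters of the same length, which says only that these letters are not in those windows.

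Of the receptor genes of short-chain fatty acids, Ffar2 and Ffar3 were barely detected in this tissue, while Niacr1 and Olr59 had more counts. Ffar1, a receptor of longer fatty acids, had 0 counts in all 11 libraries. Ffar3, a receptor of propionate and butyrate, had 0 to 1 counts in SCFA and 0 to 2 in H2O, which is within the floor of 3 counts. Ffar2, the acetate and propionate receptor, had 2 to 9 counts in SCFA and 5 to 20 in H2O, 0.0791 to 0.495 CPM (median 0.296) and 0.627, 1.01, 0.386, 0.270 and 0.236 CPM (log2 fold change -0.78 ± 0.42, SE; edgeR Benjamini-Hochberg adjusted p 0.425). Niacr1, the older symbol of the butyrate and niacin receptor Hcar2, stood at 0.910 to 1.77 CPM (median 1.38) in SCFA and 2.93, 1.46, 1.93, 2.07 and 2.13 CPM in H2O. The groups overlapped, and the log2 fold change of -0.65 ± 0.32 did not pass (edgeR Benjamini-Hochberg adjusted p 0.380). Olr59, listed with these receptors, had 33 to 197 counts in SCFA and 28 to 66 in H2O, with the 197 in SCFA replicate 5. Over the whole list of 13 tested receptors and transporters, 2 were higher and 0 lower at an unadjusted p below 0.05, and the median was 0.13, with 0 in either direction without SCFA replicates 2 and 5. These 2 were the nuclear receptor Ppara and the transcription factor Ahr, at 0.29 ± 0.13 and 0.30 ± 0.13. Ppara did not overlap between groups, with 3.96 to 4.98 CPM (median 4.39) in SCFA and 3.35, 3.07, 3.69, 3.92 and 3.92 CPM in H2O.

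Genes for the transport and use of short-chain fatty acids gave counts near the background. Slc16a1, a monocarboxylate transporter, stood at 55.4 to 84.7 CPM (median 73.5) in SCFA and 65.6, 83.3, 77.7, 90.1 and 85.8 CPM in H2O (-0.14 ± 0.10), and Slc16a7, its neuronal relative, had 0.31 ± 0.19. Slc5a8, a sodium-coupled transporter of butyrate, had 1 to 9 counts in SCFA and 1 to 4 in H2O. Of 25 metabolism genes 1 was higher and 1 lower at an unadjusted p below 0.05, or 0 without SCFA replicates 2 and 5, and the median was -0.023. The higher gene was Acss2, which makes acetyl-CoA from acetate in cytosol and nucleus, at 52.6 to 72.3 CPM (median 64.8) in SCFA and 53.5, 43.8, 53.5, 52.0 and 62.8 CPM in H2O (0.26 ± 0.090, or 0.19 without SCFA replicates 2 and 5). The lower gene was Pcca, a subunit of the propionyl-CoA carboxylase of propionate use, with 32.7 ± 2.79 CPM in SCFA and 37.1 ± 3.76 CPM in H2O (-0.18 ± 0.077). Acss1, the mitochondrial acetate enzyme, averaged 84.9 ± 6.87 CPM in SCFA and 86.2 ± 4.89 CPM in H2O (-0.023 ± 0.075).

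**Figure D3:**
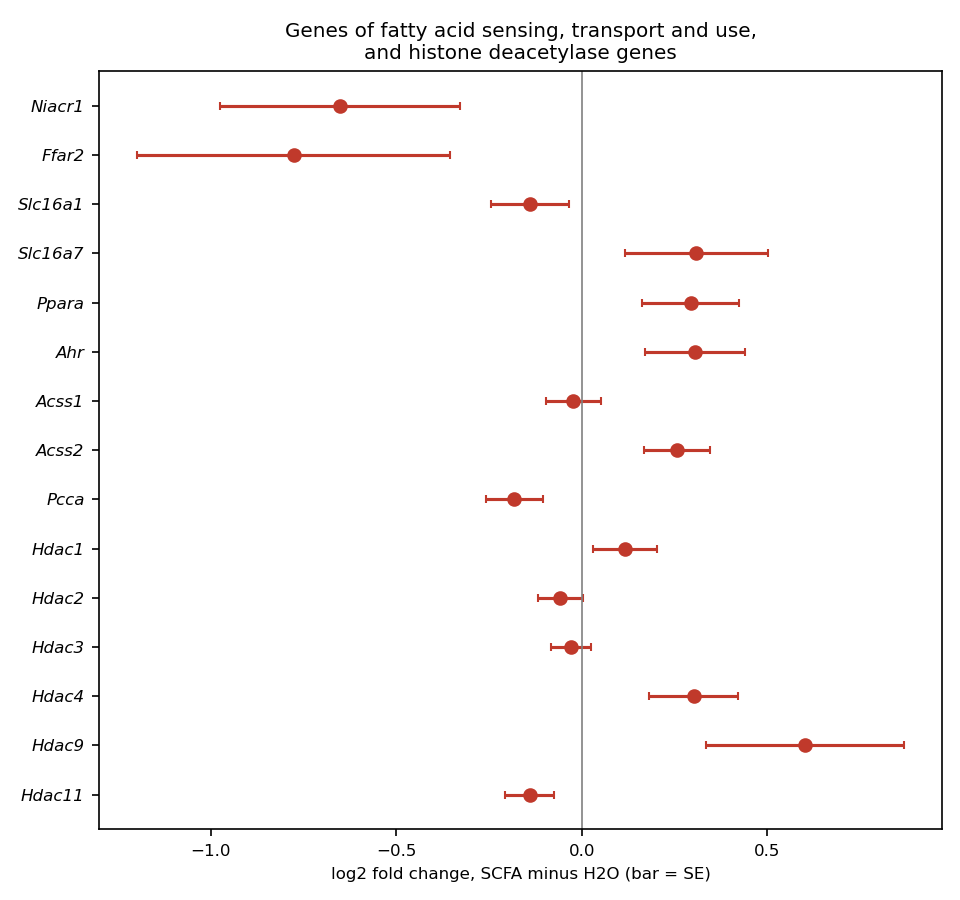
Log2 fold change (SCFA minus H2O, with SE) of genes of fatty acid sensing, transport and use and of histone deacetylase genes. Acss2 lies at 0.26 and Acss1 near 0, the low-count receptors Ffar2 and Niacr1 have the widest errors with Hdac9, and no gene shown passed the adjusted threshold.

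The histone deacetylase genes, whose products butyrate inhibits, showed small differences. Of 19 genes 3 were higher and 1 lower at an unadjusted p below 0.05 and the median was -0.010; 0 kept it without SCFA replicates 2 and 5. Hdac1, Hdac2 and Hdac3, the class I enzymes, had 0.12 ± 0.085, -0.058 ± 0.060 and -0.030 ± 0.054. The class II genes Hdac4 and Hdac9 had 0.30 ± 0.12 and 0.60 ± 0.27, and both were highest in SCFA replicate 5, with 63.9 and 23.8 CPM against 30.7 to 40.7 and 6.01 to 8.25 CPM in H2O. Hdac9 had a log2 fold change of 0.013 without SCFA replicates 2 and 5. Hdac11 had -0.14 ± 0.066. In the list of histone acetyltransferases and readers 0 of 15 tested genes had an unadjusted p below 0.05.

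No stress or nutrient sensing gene passed the adjusted threshold, and counts at an unadjusted p below 0.05 differed between the lists. Ddit3, the stress transcription factor CHOP, stood at 27.0 to 36.3 CPM (median 31.7) in SCFA and 26.1, 24.6, 22.5, 25.8 and 26.9 CPM in H2O, without overlap (0.32 ± 0.093, or 0.30 without SCFA replicates 2 and 5). Atf4, which acts upstream of it, had 0.35 ± 0.11 with SCFA replicates 2 and 5 highest. In that stress list 5 of 38 tested genes were higher and 1 lower at an unadjusted p below 0.05, or 3 and 0 without SCFA replicates 2 and 5. Heat shock genes were 1 higher and 2 lower of 24, the lower being Hsp90aa1 at -0.33 ± 0.12 and Dnajb4 at -0.19 ± 0.071. Against 5.58% lower and 8.2% higher among all genes, 6 of 33 genes of the Rag GTPase and lysosomal mTORC1 system were lower and 1 higher. Besides RragB these included Rragd, another Rag GTPase, with 40.4 ± 5.29 CPM in SCFA and 50.3 ± 7.24 CPM in H2O (-0.32 ± 0.11), and 1 gene was lower and 2 were higher at an unadjusted p below 0.05 without SCFA replicates 2 and 5.

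Collagen and matrix genes leaned higher. Of 36 collagen and collagen-processing genes 30 had a positive log2 fold change, 5 were higher at an unadjusted p below 0.05 and 0 lower, and the median of 0.090 was 0.14, with 3 higher, without SCFA replicates 2 and 5. P3h2, a collagen prolyl hydroxylase, stood at 2.10 to 2.68 CPM (median 2.46) in SCFA and 0.994, 1.71, 1.38, 2.39 and 1.66 CPM in H2O (0.57 ± 0.21, or 0.53 without those libraries), and H2O replicate 4 alone reached the SCFA range. P4ha3, another prolyl hydroxylase subunit, had 1.64 ± 0.44 with SCFA replicates 2 and 5 highest. Matrix genes were 6 higher and 3 lower of 44, but 1 higher and 1 lower without SCFA replicates 2 and 5. Among them Tnc, the glycoprotein of progenitor niches, averaged 60.8 ± 41.5 CPM in SCFA and 27.2 ± 14.8 CPM in H2O (1.15 ± 0.40), and Timp4, a metalloproteinase inhibitor, stood at 9.52 to 16.0 CPM (median 13.3) in SCFA and 22.1, 15.1, 16.3, 22.7 and 14.6 CPM in H2O (-0.47 ± 0.15).

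Interferon and MHC genes stood lower in SCFA, with H2O replicate 1 above the other water rats. Only 2 of 35 tested genes had a positive log2 fold change, 9 were lower at an unadjusted p below 0.05 and 0 higher, and the median was -0.33. Without H2O replicate 1 the median was -0.090 and 4 genes were lower at that threshold, while without SCFA replicates 2 and 5 it was -0.38 with 8. The MHC class II chain gene RT1-Ba stood at 0.367 to 2.15 CPM (median 1.36) in SCFA and 16.0, 0.705, 2.26, 2.03 and 9.74 CPM in H2O (-2.27 ± 0.63), its partner RT1-Bb had -2.34 ± 0.72 and RT1-Da -1.54 ± 0.52. Cd74, the class II invariant chain, stood at 10.03 to 38.2 CPM (median 14.6) in SCFA and 88.3, 20.2, 39.5, 18.2 and 85.0 CPM in H2O (-1.34 ± 0.46). H2O replicates 1 and 5 were high in these genes, whereas H2O replicates 2 and 4 lay inside the SCFA range of each. Counts of MHC genes are uncertain because copies are near identical. Ptprc, the leukocyte antigen CD45, stood at 7.08 to 9.62 CPM (median 8.84) in SCFA and 14.5, 9.06, 11.8, 10.7 and 11.1 CPM in H2O (-0.42 ± 0.12, or -0.41 without SCFA replicates 2 and 5), and Lcn2, an acute-phase protein, had -0.96 ± 0.34. The microglial list as a whole had a median of -0.061 with 16 of 21 negative, 2 lower and 0 higher at an unadjusted p below 0.05, and Aif1 stood at 0.054 ± 0.12.

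Clock, hormone and growth factor genes held some differences as well. Arntl, the core clock activator also called BMAL, stood at 38.3 to 56.8 CPM (median 44.4) in SCFA and 49.4, 57.4, 56.7, 51.0 and 54.6 CPM in H2O (-0.24 ± 0.072), with SCFA replicate 4 the 1 library inside the H2O range. Per2, a clock repressor, went the other way at 75.8 to 124 CPM (median 92.9) in SCFA and 80.1, 82.0, 83.3, 59.3 and 75.1 CPM in H2O (0.34 ± 0.12), and both kept an unadjusted p below 0.05 without SCFA replicates 2 and 5. The hours at which tissue was taken are not in the labels. Of 16 clock genes 3 were higher and 1 lower at an unadjusted p below 0.05, and of 17 glucocorticoid response genes 1 was higher and 4 lower. Leaving out SCFA replicates 2 and 5 left 1 higher and 1 lower for the clock and 0 higher and 2 lower for the glucocorticoid list. Nr3c2, the mineralocorticoid receptor, had -0.21 ± 0.072 and Igf1, a growth factor, 0.33 ± 0.14. Neurotrophin and receptor genes were 5 higher and 0 lower of 18, but 1 higher without SCFA replicates 2 and 5.

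Few glial, vascular and housekeeping genes had an unadjusted p below 0.05. Myelin genes were negative in 23 of 23 but 0 had an unadjusted p below 0.05, and the median of -0.19 was -0.020 without SCFA replicates 2 and 5. Against H2O rats of the 2-hundred series alone the myelin median was 0.12, and against those of the 3-hundred series alone -0.37. Mbp had -0.13 ± 0.26 and Opalin -0.32 ± 0.29. Astrocyte genes had a median of 0.0035, with Gfap at 0.11 ± 0.15, endothelial and pericyte genes 0.048 with 20 of 26 positive, ribosomal protein genes 0.0062, nuclear genes of oxidative phosphorylation -0.0045 and proteasome genes -0.0021. At an unadjusted p below 0.05, 1 of 20 astrocyte genes, 2 of 81 ribosomal protein genes and 3 of 86 oxidative phosphorylation genes stood out, against 0 of 26 endothelial and pericyte and 0 of 38 proteasome genes. Ependymal genes had a median of 0.52 with 10 of 12 positive, but 0 higher and 1 lower at an unadjusted p below 0.05. Meningeal fibroblast, choroid plexus and blood genes had 0 of 14, 0 of 5 and 0 of 6, and septal and other subcortical neuron markers 4 higher and 1 lower of 9, or 2 and 0 without SCFA replicates 2 and 5.

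**Figure D4:**
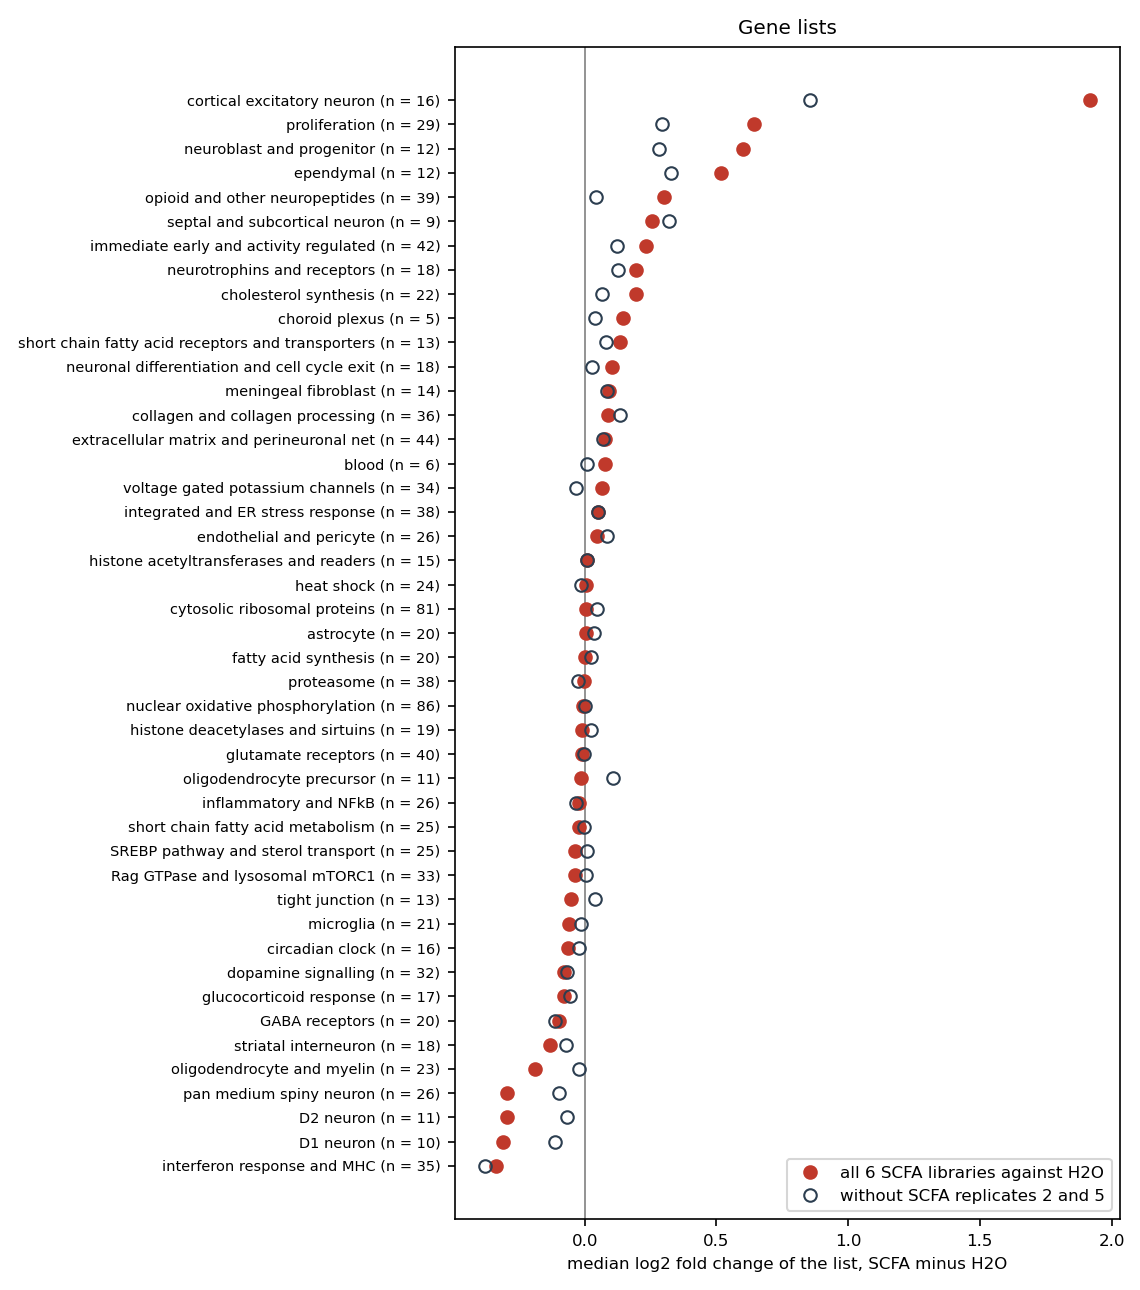
Median log2 fold change of 45 gene lists (SCFA minus H2O), with all libraries (filled) and without SCFA replicates 2 and 5 (open). The cortical, proliferation and neuroblast lists are highest and the medium spiny neuron lists among the lowest, and all of these lie nearer to 0 without the 2 libraries, while the interferon and MHC list does not. The choice of the 2 libraries by their cortical and medium spiny neuron scores favours that shift for those lists.

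The 10 genes that DESeq2 called, singled out after their values were seen, included 6 described above (Cend1, Mid2, RragB, Ahnak, Erlin1 and Hcrtr1) and 4 others. Neurod1, a transcription factor of immature excitatory neurons, had 4 to 210 counts in SCFA and 0 to 9 in H2O, highest in SCFA replicates 5 and 2. Rln1, a relaxin peptide gene, stood at 0 to 2.77 CPM (median 0.840) in SCFA and 0, 0.0503, 0, 0.135 and 0.0473 CPM in H2O. Grem1, a secreted BMP inhibitor, stood at 0.862 to 5.82 CPM (median 2.77) in SCFA and 0.418, 1.01, 0.441, 0.406 and 1.04 CPM in H2O (edgeR log2 fold change 2.21 ± 0.56), and Ibsp, a bone matrix protein gene, at 0.384 to 8.51 CPM (median 0.862) and 0.418, 0.403, 0.331, 0.0901 and 0.284 CPM. In each of Neurod1, Rln1, Grem1 and Ibsp the 2 highest libraries of the 11 were SCFA replicates 2 and 5.

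Fatty acids were also given to rats on antibiotics, though the labels do not say whether type and dose were the same. That comparison shares no library with SCFA against H2O, but both draw on 1 estimate of the spread. All Abx_SCFA rats carry numbers of the 4-hundred series and all Abx rats numbers of the 2- or 3-hundred series. Number series and fatty acids therefore cannot be told apart on this background either. Between Abx_SCFA and Abx edgeR called 0 of 12846 genes (0.0%), and 410 (3.19%) had an unadjusted p below 0.05, 238 higher (1.85%) and 172 lower (1.34%). Of the 24 genes 13 had the same sign as in SCFA against H2O, 0 had an unadjusted p below 0.05, and their log2 fold changes ran from -0.48 to 0.41. The difference between both fatty acid effects was tested as an interaction: 0 genes passed (0.0%; smallest Benjamini-Hochberg adjusted p 0.622 by edgeR), and 1008 (7.85%) had an unadjusted p below 0.05, 19 of the 24 among them, a count the choice of these genes favours. Across all 12846 genes the log2 fold changes of both contrasts had a Pearson r of -0.24, a description across genes, which are not independent.

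For the groups of genes the values on both backgrounds stood as follows. The median log2 fold change of the cortical list was 1.92 in SCFA minus H2O and -0.34 in Abx_SCFA minus Abx. Proliferation genes had 0.64 and -0.025, pan medium spiny neuron genes -0.29 and 0.019, and cholesterol synthesis genes 0.19 and -0.064. Interferon and MHC genes had -0.33 and 0.062, and myelin genes -0.19 and 0.23. Mid2, the leading lower gene, had -0.41 ± 0.081 and -0.023 ± 0.090 (SE), Cend1 -3.52 ± 0.67 and -0.33 ± 0.58, Ahnak 0.27 ± 0.061 and 0.11 ± 0.068, and Kdm6b 0.36 ± 0.089 and -0.13 ± 0.10. Acss2 had 0.26 ± 0.090 and -0.0032 ± 0.10. No interaction of these genes passed.

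**Figure D5:**
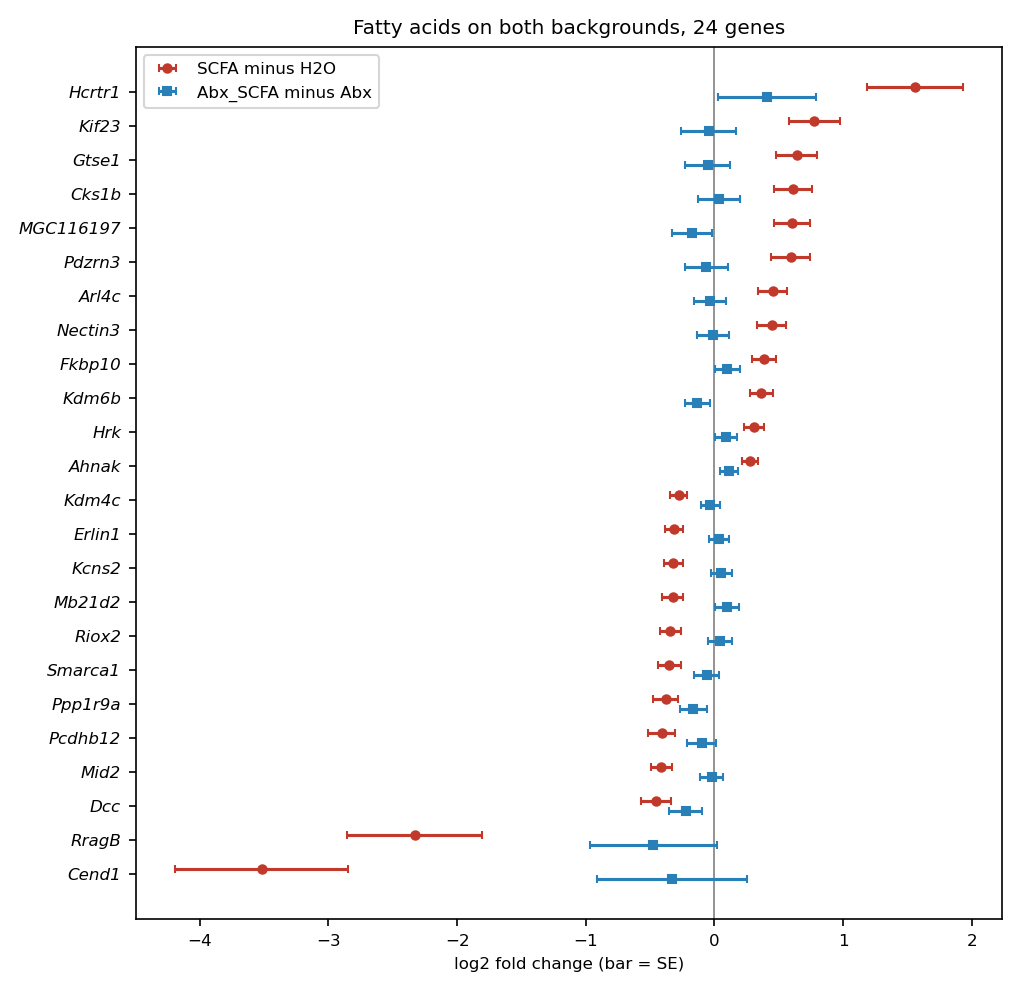
Log2 fold changes with SE of the 24 genes of smallest p in SCFA minus H2O (red circles) and in Abx_SCFA minus Abx (blue squares). The blue values lie between -0.48 and 0.41, nearer to 0 than the red values for each gene, which were chosen on the red contrast.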

How the data were processed

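The authors deposited 1 table of raw read counts per gene symbol for 20 nucleus accumbens libraries, with 17296 symbols, 1822 of them without a count. The Rnor_6.0 build, STAR 2.4.0, FastQC 0.11.6 and limma appear in the submitters' processing notes; the counting tool, annotation and strand setting were not given in the sources used here, so reads of overlapping and antisense genes may be mixed. Per the labels' protocols, RNA was extracted with an RNeasy kit and cDNA made with a SMARTer kit.

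Groups came from the treatment labels. Counts were fitted in edgeR 4.0.16 (R 4.3.3) in 1 model of 4 groups over all 20 libraries (16 residual degrees of freedom), with TMM scaling, filterByExpr (at least 10 counts, total at least 15) leaving 12846 genes, the robust quasi-likelihood F test and Benjamini-Hochberg adjustment, called at 0.05. Standard errors are the log2 fold change divided by the root of F. Scores used log2 CPM with a prior count of 2. The same steps were tested on simulated data. No pair of libraries agreed within sampling noise, the smallest chi-square being 6.77 per gene. limma 3.58.1 (voom) and DESeq2 1.42.0 were alternatives, with other scaling, no filter, fewer libraries, a cortical score as covariate and single H2O number series.

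Gene lists and members were chosen with earlier results of these data known. Named genes are the 12 of smallest p in each direction with a mean of at least 1 CPM, up to 4 of smallest p per list, and a set named in any case. Promoters were matched by symbol to RefSeq on GRCr8.

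Results of some genes are not reported here.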

Additional observations from a re-analysis of the deposited data

Results flagged for a closer look

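Of 326 groups of values examined, 1 per gene or list score and drink, 21 held a library that lay far from the rest of its group by Dixon's test at the 95% level. For independent values of normal spread, chance gives about 1 in 20 groups. These groups share the same libraries and are mostly CPM values, so that rate need not hold here. The library was H2O replicate 5 in 9 of them, SCFA replicate 5 in 6, SCFA replicate 2 in 3, and H2O replicate 1, H2O replicate 2 and SCFA replicate 4 in 1 each.

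SCFA replicate 5 was the highest SCFA library for MGC116197 at 11.8 CPM (the others 6.62 to 8.26), Neurod1 at 8.31 CPM (the others 0.171 to 3.19), Fezf2 at 39.4 CPM (the others 6.13 to 17.3) and Hdac4 at 63.9 CPM (the others 37.9 to 46.0). It was also highest for Grm2 at 58.4 CPM (the others 3.72 to 21.1) and Gabbr2 at 358 CPM (the others 77.7 to 181). SCFA replicate 2 was highest for Igfbpl1 at 27.2 CPM (the others 5.51 to 13.3). SCFA replicate 4 was highest for Arntl at 56.8 CPM (the others 38.3 to 44.6).

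SCFA replicate 2 also had the lowest striatal interneuron score of the SCFA libraries, 4.33 against 4.48 to 4.54, and the highest score of the integrated and ER stress list, 6.08 against 5.94 to 5.98.

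Among the water rats, H2O replicate 5 was highest for Neurod1 at 0.425 CPM (the others 0 to 0.101), Slc17a7 at 252 CPM (the others 3.09 to 32.8) and Neurod6 at 11.1 CPM (the others 0.418 to 1.71). It was also highest for Vip at 6.24 CPM (the others 0.827 to 2.27), Bdnf at 6.05 CPM (the others 0.105 to 0.906), P4ha3 at 2.60 CPM (the others 0.937 to 1.397) and Tnc at 52.6 CPM (the others 14.2 to 24.8). It was also highest for Kcnc4 at 25.5 CPM (the others 11.8 to 15.4) and Gfap at 859.6 CPM (the others 567.9 to 630.2). H2O replicate 1 was highest for Lcn2 at 5.96 CPM (the others 1.91 to 2.52). H2O replicate 2 was highest for Arl4c at 25.8 CPM (the others 21.7 to 22.8).

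The cortical scores of SCFA replicates 5, 2 and 6 were 6.39, 5.72 and 5.14 and that of H2O replicate 5 was 4.48, the highest of their groups, and the part of that score in these values was not tested.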

How the results depend on the processing

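The count of 0 genes called became 10 with DESeq2 and ranged from 0 to 2 when 1 replicate was left out, the 2 being Cend1 and RragB without H2O replicate 4; limma-voom, other scaling, no filter and fewer libraries gave 0. The count of 1770 genes at an unadjusted p below 0.05 became 636 without SCFA replicates 2 and 5, 419 under a cortical score covariate and 1006 against the 3-hundred H2O rats, and ranged from 1182 without SCFA replicate 5 to 2328 without H2O replicate 5. The interaction called 0 genes in every setting run. For the named genes, 2304 of 2357 values in other settings kept their direction and side of the threshold, 12 passed it and 41 changed sign; of 900 list medians 31 moved by more than their spread. Of the 24 genes of smallest p, 24 kept an unadjusted p below 0.05 without SCFA replicates 2 and 5, but 9 under the cortical score covariate. Their choice by p in the same contrast favours both counts. No paired analysis was possible because the labels give no replicate numbers that SCFA and H2O share.

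Under the cortical score covariate, itself built from the cortical list, the log2 fold change changed sign for Dlx1 (-0.014), Dlx2 (-0.087), Btg2 (-0.19), Fezf2 (-0.042), Isl1 (0.0025), Gpr6 (0.0057), Drd2 (0.026), Penk (0.021), Vip (-0.28), Elavl2 (-0.11), Nptx2 (-0.21), Fos (-0.26), Egr1 (-0.31), Idi1 (-0.013), Acat2 (-0.12), Hmgcs1 (-0.28), Srebf2 (-0.027), Me1 (-0.10), Scd (-0.093), Ahr (-0.028), Slc16a7 (-0.16), Acss1 (0.054), Hdac3 (0.082), Hdac9 (-0.27), Atf4 (-0.030), Gnas (-0.025), Sstr1 (-0.12), Grm2 (-0.17), Gabbr2 (-0.35), Kcnc4 (-0.12) and Mbp (0.050). Without SCFA replicates 2 and 5 it did so for Egr1 (-0.060) and Mbp (0.048), and against the 2-hundred H2O rats for Acss1 (0.021), Mbp (0.17) and Opalin (0.068). With 1 replicate left out, Acss1 ran from -0.048 to 0.010, Hdac3 from -0.056 to 0.0015, Mbp from -0.29 to 0.035 and Aif1 from -0.00079 to 0.11. The cause of these shifts was not tested. Precision is limited by 6 and 5 rats per drink, and low counts limit Ffar2 and Ffar3, and Cend1 and RragB in their low libraries.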
